A study of Homo sapiens with 12 samples.

Results

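Silver nanoparticles alone were compared with PBS in PC3, a human cell line derived from a bone metastasis of prostate cancer. The comparison is between 6 of the 12 RNA sequencing libraries of the series. They are 3 of cells given silver nanoparticles (AgNPs) and 3 of cells given PBS (BLANK). All 12 libraries are of PC3 cells labelled as wild type. The other 6 libraries are of cells given DOC, which the labels give only as an abbreviation, or AgNPs and DOC together (COM). No dose, exposure time, particle size or coating is given in the labels. The labels do not say that the 3 replicates of a group were separate cultures, so each p-value below measures the spread between these libraries, which may be technical. All genes in the table were compared, and the account dwells on pathways, transcription factors and genes outside the stress response lists.

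Silver particles taken up by cells release silver ions, which bind the thiol groups of proteins and displace other metals. Cells are known to answer such an insult through several transcription factors. NRF2 (gene NFE2L2) with small MAF partners drives antioxidant genes, MTF1 drives metal-binding proteins and zinc export, ATF4 and its partners drive amino acid supply, and TFE3 drives lysosomal genes. Growth is set by an opposed circuit, in which MYC drives ribosome and nucleotide synthesis, E2F factors drive DNA replication, and MXD proteins compete with MYC for its partner MAX.

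AgNPs libraries held 13049868 to 13362290 summed counts of linear transcripts and BLANK libraries 22573481 to 22769479, so depth differed between the groups. A floor of 3 counts corresponded to 0.225 to 0.230 CPM (counts scaled to library size, with TMM factors) in AgNPs and 0.133 to 0.135 CPM in BLANK. This floor covers counting error only. BLANK replicate 1 differed more from its fellow libraries than these did from each other, with chi-square per degree of freedom of 3.75 and 3.50 against 1.84, and DOC replicate 1 stood apart in the same way (4.48 and 4.81 against 1.71). PC3 markers were checked first. VIM and CD44 were abundant, at 864 to 879 and 310 to 331 CPM in BLANK. CTNNA1, which PC3 cells are known to have lost, was at 0.856 to 1.33 CPM in BLANK and 2.21 to 2.83 CPM in AgNPs. The summed level of 5 immune markers was 41.6 to 46.2 CPM in BLANK and 39.1 to 45.3 CPM in AgNPs, nearly all of it CD68. The 9 fibroblast markers summed to 117 to 128 CPM in BLANK and 96.2 to 108 CPM in AgNPs. Most of this was COL1A2, at 85.2 to 96.3 CPM in BLANK and 65.0 to 74.4 CPM in AgNPs (called lower). DCN was at 0 in every library of both groups. The 5 endothelial markers summed to 7.89 to 8.69 CPM in BLANK and 9.09 to 10.04 CPM in AgNPs. The part of these small shifts in the results was not tested.

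Of 19986 genes tested, 6180 changed after AgNPs (edgeR quasi-likelihood test, Benjamini-Hochberg adjusted p under 0.05, 30.9% of all tested). The 2983 that rose were 14.9% of the genes tested and the 3197 that fell were 16%. Rises were larger than falls. At least 2-fold higher were 421 genes (2.11%) and at least 2-fold lower 57 (0.285%). The median log2 change over all genes was 0.01. With every library thinned to the smallest, 2390 genes rose and 2992 fell, and without BLANK replicate 1, 2699 rose and 2942 fell. The count of at least 2-fold lower genes depended on the analysis, at 21 with DESeq2, 32 with a filter of 1 CPM in 3 libraries, 37 on RefSeq transcripts only, 97 with no filter and 2 with limma on log2(FPKM + 1), where 98 genes were at least 2-fold higher. Among the 421 were 54 of the 167 tested genes of the stress lists (metallothionein, antioxidant, ATF4, heat shock, chaperone, immediate early and autophagy genes). In bulk RNA, fewer cells of a kind and less RNA per cell cannot be told apart.

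Falls gathered among strongly expressed genes. Below an average log2 CPM of 0, 33 of 2419 genes fell (1.36%), and at 8 or more 284 of 570 did (49.8%). The share that rose moved less, from 7.07% in the lowest class to 17.2% in the highest, with 18.9% between 6 and 8. Of the 57 genes at least 2-fold lower, 32 were below 0 and 20 between 0 and 2 on that scale. Strongly expressed genes are measured with more counts, and the part of this in the trend was not tested. Among 13056 protein-coding genes 2316 rose (17.7%) and 2859 fell (21.9%). These shares are the background for the lists of coding genes below. Among 3274 lncRNA genes 346 rose and 177 fell.

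**Figure D1:**
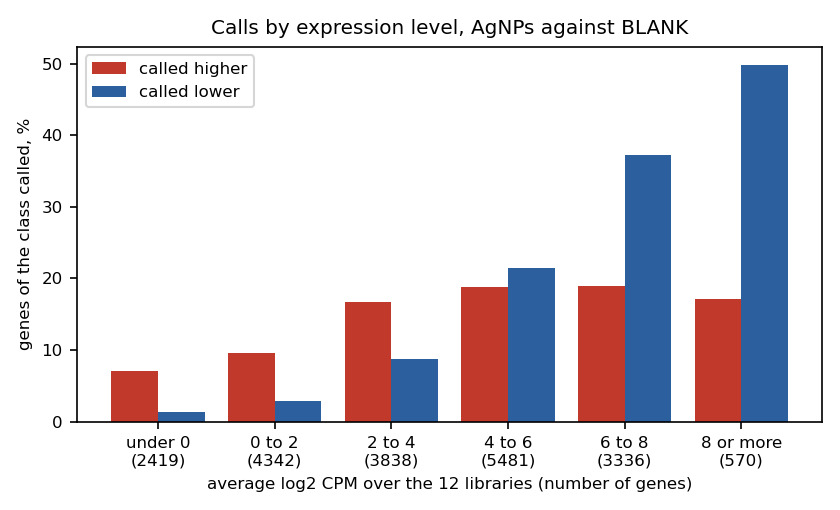
Share of tested genes called higher (red) or lower (blue) in AgNPs against BLANK, in %, by average log2 CPM over the 12 libraries, with the number of genes per class in brackets. The blue bars climb from 1.36% to 49.8% across the classes.

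Outside the stress lists, 2 genes of low starting level led the rises among genes averaging at least 1 on the log2 CPM scale. HTRA3, a secreted serine protease, was at 0.180 to 0.399 CPM in BLANK, little above the floor, and at 27.6 to 29.2 CPM in AgNPs. S100P, a calcium-binding protein, was at 0.399 to 0.450 CPM in BLANK and 8.64 to 9.58 CPM in AgNPs. The third by fold was CLIP4, a member of the CAP-Gly family of microtubule-binding proteins (chromosome 2, 29097726 to 29183808). It was at 1.76, 2.26 and 2.13 CPM in BLANK replicates 1 to 3 and at 18.4, 18.4 and 19 CPM in AgNPs. The groups lay far apart, and the rise was 3.18 ± 0.12 (SE, n = 3 per group) on the log2 scale, with an edgeR adjusted p of 1.02e-21. ALDH3A1, an aldehyde dehydrogenase that clears reactive aldehydes (chromosome 17, 19737984 to 19748298), was at 122, 126 and 128 CPM in BLANK and 719, 744 and 723 CPM in AgNPs. Its replicates hardly differed beside a rise of 2.54 ± 0.03 (edgeR adjusted p = 1.34e-38). FLRT1, a leucine-rich membrane protein of cell adhesion, rose by 2.42 ± 0.20. TSC22D3, the leucine zipper protein known for its induction by glucocorticoids, rose by 2.05 ± 0.14. ABHD4, a lipase of N-acyl phospholipids, went from 15.2 to 16.1 CPM in BLANK to 51.8 to 56.5 CPM in AgNPs. PANX2, a pannexin channel subunit, rose by 1.74 ± 0.08, SYNC, an intermediate filament protein, by 1.76 ± 0.23, and ANKFN1 by 2.07 ± 0.17. PAPPA2, a protease that cleaves insulin-like growth factor binding proteins, rose by 1.87 ± 0.22.

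The cell cycle inhibitor CDKN1A was at 9.10, 9.62 and 8.52 CPM in BLANK and 39.8, 36.8 and 38.4 CPM in AgNPs. PC3 cells carry no functional p53, the factor best known for inducing it. CDKN2B, an inhibitor of CDK4 and CDK6, was at 25.7 to 27.3 CPM in BLANK and 48.0 to 53.7 CPM in AgNPs. In all, 12 of 43 tested cyclins, CDKs and their regulators rose (27.9%) and 13 fell (30.2%), beside 17.7% and 21.9% of protein-coding genes. Other cell cycle lists were less even. Of 78 genes of mitosis and kinesins 69 fell (88.5%) and 2 rose (median -0.38). Of 50 DNA replication genes 28 fell (56%) and 3 rose (median -0.15). CCNF, a cyclin that targets proteins for degradation, fell by 0.87 ± 0.05, and CDKN3, a phosphatase of CDKs, by 0.67 on the log2 scale.

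Falls were smaller in size. Only 9 genes with an average log2 CPM above 1 fell at least 2-fold. One was CTDSP1, a phosphatase of RNA polymerase II that acts with the neuronal repressor REST (chromosome 2, 218396351 to 218405941). CTDSP1 was at 63.0, 62.8 and 63.6 CPM in BLANK and 30.9, 31.4 and 28.3 CPM in AgNPs, a change of -1.06 ± 0.05 (edgeR adjusted p = 1.99e-18). APLN, the secreted ligand apelin, was at 33.5 to 35.2 CPM in BLANK and 17.6 to 19.2 CPM in AgNPs. ELFN1, a synaptic adhesion protein, changed by -0.93 ± 0.16, MBNL3, a splicing regulator, by -0.84 ± 0.12, and GAS2L3, a cytoskeletal linker of cytokinesis, by -0.89 ± 0.07. The replicates of both groups were apart for each of these. LOC102724701 had a larger fitted fall (-1.24 ± 0.38, edgeR adjusted p = 0.0328), but its call held in only 12 of 21 alternative analyses. Without AgNPs replicates 1 or 2, any BLANK replicate or any DOC replicate its call ended, with adjusted p up to 0.112.

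Few genes were switched on. Only 4 genes with a symbol lay below 3 counts in every BLANK library and at 1 CPM or more in every AgNPs library. CYP4F11, a fatty acid and drug hydroxylase of the cytochrome P450 family (chromosome 19, 15912377 to 15934867), was at 0 in all 3 BLANK libraries and at 3.23, 2.59 and 2.22 CPM in AgNPs. Against the floor of 3 counts per library this was at least 20.04-fold higher. KLHDC7B, a kelch domain protein, was at 0.0901, 0.0886 and 0 CPM in BLANK, below that floor, and at 1.13, 1.45 and 1.61 CPM in AgNPs. The other two, LOC101928994 and LOC105373349, are uncharacterised, and the last had only 16.99% of its counts on RefSeq transcripts.

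Enzymes that handle aldehydes, ketones and foreign compounds formed the list with the most rises of at least 2-fold among lists of other categories than stress. The list overlaps the antioxidant stress list, which also holds AKR1B10, AKR1C1 and AKR1C3. Of 52 tested aldo-keto reductases, aldehyde dehydrogenases, cytochromes and conjugating enzymes 24 rose, 5 fell and 23 did not pass, and 12 rose at least 2-fold (median 0.18 against 0.01 for all genes). AKR1C1, a reductase of steroids and lipid aldehydes, was at 1.58, 1.73 and 1.86 CPM in BLANK and 16.4, 15.8 and 19.2 CPM in AgNPs. AKR1C3, which makes androgens from precursors in the prostate, was at 2.08 to 3.23 CPM in BLANK and 14.1 to 15.7 CPM in AgNPs. Both rose, by 3.31 ± 0.12 and 2.57 ± 0.13, and both are uncertain because the AKR1C genes are near-identical. AKR1B1, aldose reductase, rose by 1.85 ± 0.22.

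Transcription factor genes as a whole changed about as often as other protein-coding genes, but their families differed. Over 763 tested factors of all families 183 rose and 117 fell, 39.3% in all, and 15 rose at least 2-fold. Among protein-coding genes 39.6% changed and among all genes tested 30.9%. Of the 763, 430 were zinc finger genes of the ZNF, ZSCAN and ZKSCAN families, of which 27.4% changed. Of the 333 other factors 101 rose (30.3%) and 81 fell (24.3%), 54.7% in all. The families differed in direction as well. Of 27 AP-1, ATF and CREB factors 17 rose and 2 fell, and of 9 CNC and small MAF factors 7 rose, with MAFK and NFE2L3 not passing. Of 25 STAT, IRF, NFkB and NFAT factors 10 rose and 4 fell. Of 21 E2F, DP and MYB factors 5 rose and 11 fell. Of 44 homeobox factors 10 rose and 15 fell, and of 430 zinc finger genes of the ZNF, ZSCAN and ZKSCAN families 82 rose and 36 fell.

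**Figure D2:**
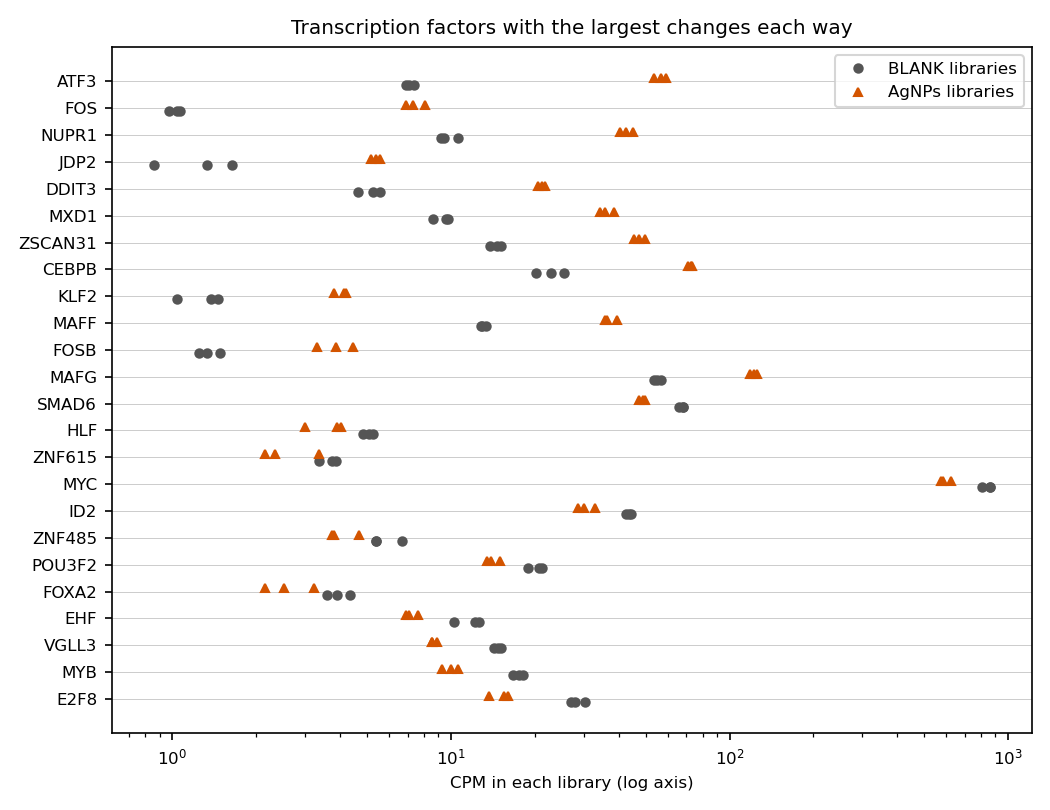
CPM (log axis) of the 12 transcription factors with the largest rises and the 12 with the largest falls, in each BLANK library (grey circles) and each AgNPs library (orange triangles). The groups do not overlap for any of them, which the choice of these genes required, and the rises span more of the axis than the falls.

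Most CNC and small MAF genes rose, by unequal amounts. MAFG, a small MAF protein that pairs with NRF2 on antioxidant elements (chromosome 17, 81918270 to 81931244), was at 53.4, 56.6 and 55 CPM in BLANK and 125, 118 and 123 CPM in AgNPs (1.15 ± 0.04, edgeR adjusted p = 2.86e-23). MAFF, its relative, was at 12.8 to 13.4 CPM in BLANK and 35.8 to 39.6 CPM in AgNPs. NFE2L2 itself rose less, by 0.55 ± 0.04, as did NFE2L1, which drives proteasome genes, by 0.49 ± 0.03. BACH1, the repressor that competes for the same sites, rose by 0.29 ± 0.04. MTF1, the metal sensor, rose by 0.28 ± 0.05. CEBPB, a partner of ATF4 (chromosome 20, 50190583 to 50192690), was at 20.2, 22.8 and 25.4 CPM in BLANK and 71.0, 72.6 and 73.2 CPM in AgNPs. NUPR1, a chromatin protein of the stress response, rose by 2.13 ± 0.07, and JDP2, a JUN dimerisation partner, by 2.06 ± 0.20. ATF4 rose by 0.67 ± 0.03 and JUNB, an AP-1 subunit, by 0.93 ± 0.04.

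Several factors with no place in the stress lists rose as well. ZSCAN31, a SCAN domain zinc finger protein (chromosome 6, 28324737 to 28356271), was at 14.7, 15.1 and 13.8 CPM in BLANK and 47.4, 45.3 and 49.6 CPM in AgNPs, a rise of 1.71 ± 0.06 (edgeR adjusted p = 2.95e-22). No other gene of its 430-member list rose as much. AHR, the receptor for dioxins and other aromatic compounds, was at 91.1 to 99.1 CPM in BLANK and 165 to 168 CPM in AgNPs. TFE3, a driver of lysosome genes, was at 44.2 to 45.7 CPM in BLANK and 80.2 to 84.6 CPM in AgNPs, and TFE3 was the 1 riser among 9 TFEB, USF and SREBP factors. SREBF1 and SREBF2, which drive fatty acid and sterol synthesis, fell by 0.47 and 0.27 on the log2 scale. ELF3, an epithelial ETS factor, rose by 0.87 ± 0.08, ETV5, an ETS factor downstream of growth factor signalling, by 0.65 ± 0.04, GATA6, an endodermal factor, by 0.62 ± 0.06, and NFKB2, a subunit of the alternative NFkB pathway, by 0.63 ± 0.07.

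The KLF genes did not move together. KLF2, a factor best known in endothelium, went from 1.04 to 1.46 CPM in BLANK to 3.80 to 4.21 CPM in AgNPs (1.64 ± 0.20, edgeR adjusted p = 1.75e-08). KLF4 and KLF5, epithelial regulators, rose by 0.34 ± 0.05 and 0.40 ± 0.04, while KLF6, a suppressor of prostate growth, fell by 0.27 ± 0.05. KLF10, a TGF-beta responsive gene, was at -0.08 ± 0.04 and its libraries overlapped (edgeR adjusted p = 0.166). Of 22 KLF and SP factors 6 rose, 5 fell and 11 did not pass.

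Factors of proliferation and of developmental identity were among those that fell. MYC was at 862, 804 and 858 CPM in BLANK and 622, 583 and 576 CPM in AgNPs, a change of -0.50 ± 0.03 (edgeR adjusted p = 4.04e-16). Its antagonist MXD1 (chromosome 2, 69915109 to 69942945) went the other way, from 9.77, 8.64 and 9.58 CPM in BLANK to 35.8, 34.4 and 38.4 CPM in AgNPs (1.96 ± 0.07). MXD4, another antagonist, rose by 0.66 on the log2 scale, but MXD3, of the same family, was lower (-0.45 ± 0.14), a call that ended without BLANK replicate 2 or 3 and with DESeq2 (adjusted p up to 0.0570). MLXIP and MLX, of the glucose-sensing arm of the network, were at -0.20 ± 0.04 and -0.23 ± 0.06, both lower, the call of MLX ending without AgNPs replicate 2 (0.107). Of 11 tested genes of the network 2 rose, 4 fell and 5 did not pass. MAX, MXI1, MNT, MGA and MYCL did not pass. E2F8, a late cell cycle repressor, was at 27.0, 28.0 and 30.3 CPM in BLANK and 13.7, 15.5 and 16 CPM in AgNPs (-0.91 ± 0.07). E2F1 fell by 0.40 and FOXM1, a driver of mitotic genes, by 0.29 on the log2 scale. E2F7, the closest relative of E2F8, rose by 0.29 ± 0.04. MYB, a factor of progenitor cells, went from 16.8 to 18.2 CPM to 9.27 to 10.6 CPM. VGLL3, a cofactor of TEAD proteins, fell by 0.76 ± 0.10, EHF, an epithelial ETS factor, by 0.70 ± 0.13, and POU3F2, a neural factor, by 0.52 ± 0.08. HOXB13, which marks the prostate lineage, was at 371 to 373 CPM in BLANK and 296 to 301 CPM in AgNPs. FOXA2, a pioneer factor, was at -0.58 ± 0.17, and its call ended without AgNPs replicate 3 (edgeR adjusted p = 0.0896). Calls of HLF (-0.47 ± 0.15) and ZNF615 (-0.49 ± 0.18) also ended without single libraries. For HLF these were AgNPs replicate 3 or BLANK replicate 2 (adjusted p up to 0.153 over all alternatives). For ZNF615 they were AgNPs replicates 1 or 3 or BLANK replicates 1 or 2 (up to 0.255). ZNF485 (-0.51 ± 0.14) lost its call without BLANK replicate 3 (0.0543). ID2, an inhibitor of bHLH factors, fell by 0.51 ± 0.05. ID1 was at -0.14 ± 0.03, and its call ended without AgNPs replicate 2 (0.0541).

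Promoter windows of RefSeq genes on GRCh38.p14 were searched for short motifs of these factors on both strands, from 250 bases before to 50 bases after the first listed start. A window was found for 12953 of the 19986 genes tested. The C/EBP-ATF motif TGATGNAA was held by 7.84% of windows of genes at least 2-fold higher (20 of 255), by 2.08% of all tested genes, and by 0 of 24 windows of genes at least 2-fold lower. The antioxidant core TGACNNNGC was held by 19.2% of windows of genes at least 2-fold higher and 14.9% of all tested genes. The metal element, TGCACNC or TGCGCNC, was less frequent among genes at least 2-fold higher (31.0%) than among all tested genes (37.4%), and most frequent among all genes that fell (42.5%). The E2F motif, TTTGGCGC or TTTCCCGC, was held by 4.93% of genes that fell, 3.41% of all tested genes and 0 of 24 windows of genes at least 2-fold lower. The CHR motif TTTGAA was held by 11.8% of genes that fell, 12.5% of genes at least 2-fold higher, 8 of 24 windows of genes at least 2-fold lower and 10.9% of all tested genes. The palindrome TCACGTGA, the CLEAR-type E-box of lysosomal genes, was held by 1.90% of genes that rose and 1.71% of all tested genes. Shares differed over all 27305 windows, which include genes not tested. There the C/EBP-ATF motif was in 3.67%, the antioxidant core in 13.6% and the metal element in 29.3%. The E2F motif was in 2.31%, the CHR motif in 15.4% and the E-box in 1.04%. The part of expression level in the motif shares was not tested. Sites of different motifs shared bases in 89 windows of tested genes, 50 of them an E-box over an antioxidant core and 36 a metal element over an antioxidant core. These are matches of letters, and no binding was measured.

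The 250 bases before the start of 6 genes are shown, as examples of genes that changed and hold one of the motifs searched. All are from RefSeq on GRCh38.p14, written 5′ to 3′ on the strand of the gene, with the sites of 1 motif per gene in capitals. Sites of other searched motifs are left in lower case: an antioxidant core in MT2A, metal elements in CYP4F11, ASNS and FGF21, and an E2F motif in CENPA. MT2A, a metallothionein, has 7 metal elements (chr16:56608334-56608583, plus strand). CYP4F11 has 1 antioxidant core (chr19:15934868-15935117, minus strand). ASNS, asparagine synthetase (chr7:97872409-97872658, minus strand), and FGF21, a secreted metabolic hormone (chr19:48755274-48755523, plus strand), each have 1 C/EBP-ATF motif. CENPA, the centromeric histone, has 1 CHR motif close to its start (chr2:26785806-26786055, plus strand). MCM7, a subunit of the replicative helicase, has 1 E2F motif (chr7:100101398-100101647, minus strand).
MT2A: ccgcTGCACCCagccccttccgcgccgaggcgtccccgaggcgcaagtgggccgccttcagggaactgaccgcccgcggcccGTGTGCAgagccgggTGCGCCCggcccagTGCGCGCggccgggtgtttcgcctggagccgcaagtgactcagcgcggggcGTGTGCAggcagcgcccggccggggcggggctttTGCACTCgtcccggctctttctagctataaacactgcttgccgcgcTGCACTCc
CYP4F11: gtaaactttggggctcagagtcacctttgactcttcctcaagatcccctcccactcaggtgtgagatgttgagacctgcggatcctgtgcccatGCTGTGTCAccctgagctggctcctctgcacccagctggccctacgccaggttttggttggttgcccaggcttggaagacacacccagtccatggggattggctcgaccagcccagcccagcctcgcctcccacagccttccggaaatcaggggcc
ASNS: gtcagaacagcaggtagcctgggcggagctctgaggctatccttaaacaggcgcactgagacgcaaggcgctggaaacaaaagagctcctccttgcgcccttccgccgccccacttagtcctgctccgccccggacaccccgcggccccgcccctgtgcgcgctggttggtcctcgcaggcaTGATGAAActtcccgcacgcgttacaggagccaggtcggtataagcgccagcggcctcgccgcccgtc
FGF21: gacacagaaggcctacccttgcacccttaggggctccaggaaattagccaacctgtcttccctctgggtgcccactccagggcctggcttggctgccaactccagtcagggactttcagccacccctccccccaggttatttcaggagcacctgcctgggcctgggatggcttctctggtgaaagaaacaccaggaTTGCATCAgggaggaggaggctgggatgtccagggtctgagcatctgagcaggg
CENPA: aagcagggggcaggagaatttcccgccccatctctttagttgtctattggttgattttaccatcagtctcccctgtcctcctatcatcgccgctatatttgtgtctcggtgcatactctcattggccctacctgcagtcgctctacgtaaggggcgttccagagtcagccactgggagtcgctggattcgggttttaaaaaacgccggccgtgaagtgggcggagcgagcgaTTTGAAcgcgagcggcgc
MCM7: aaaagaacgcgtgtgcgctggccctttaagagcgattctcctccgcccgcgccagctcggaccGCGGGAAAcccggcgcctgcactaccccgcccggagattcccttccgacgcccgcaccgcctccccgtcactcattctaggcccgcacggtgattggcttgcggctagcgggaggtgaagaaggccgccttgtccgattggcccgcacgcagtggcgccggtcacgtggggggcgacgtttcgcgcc

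The genes behind these promoters gave the following values. MT2A was at 107, 89.6 and 91.8 CPM in BLANK and 1373, 1333 and 1277 CPM in AgNPs, and is uncertain because of its paralogs. ASNS was at 70.6, 75.1 and 70.1 CPM in BLANK and 167, 173 and 169 CPM in AgNPs. FGF21 was at 0.135 to 0.266 CPM in BLANK, around the floor, and at 4.06 to 5.71 CPM in AgNPs. MCM7 was at 276, 293 and 291 CPM in BLANK and 153, 147 and 154 CPM in AgNPs (-0.92 ± 0.03), and CENPA went from 21.4 to 21.8 CPM to 11 to 11.3 CPM. In each of the 5 the groups were fully apart.

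Most genes that build ribosomes fell, each by a small amount. Of 86 tested genes of ribosome biogenesis and RNA polymerases I and III 68 fell (79.1%), 1 rose and 17 did not pass. Their median was -0.24 beside 0.01 for all genes. Among protein-coding genes 21.9% fell. UTP20, part of the small subunit processome (chromosome 12, 101280105 to 101386618), was at 210, 205 and 208 CPM in BLANK and 151, 145 and 156 CPM in AgNPs (-0.47 ± 0.03, edgeR adjusted p = 3.15e-14). POLR1G, a subunit of RNA polymerase I, went from 52.0 to 53.7 CPM to 30.5 to 34.9 CPM, the largest fall of the list. MYBBP1A, a nucleolar regulator of ribosomal RNA synthesis, fell by 0.41 and the nucleolar GTPase GNL3L by 0.32 on the log2 scale. NCL, nucleolin, was at 1028 and 1014 CPM in BLANK replicates 1 and 3, slightly lower in replicate 2, and 770, 768 and 759 CPM in AgNPs. NPM1, nucleophosmin, fell by 0.17 ± 0.02. The exception was POLR3C, a subunit of RNA polymerase III, at 0.20 ± 0.05. The proteins of the finished ribosome had other counts. Of 30 cytosolic ribosomal protein genes 1 rose, 4 fell and 25 did not pass (median -0.04), and together they held 2.06 ± 0.018% (SD, n = 3) of CPM in BLANK and 2.01 ± 0.011% in AgNPs.

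**Figure D3:**
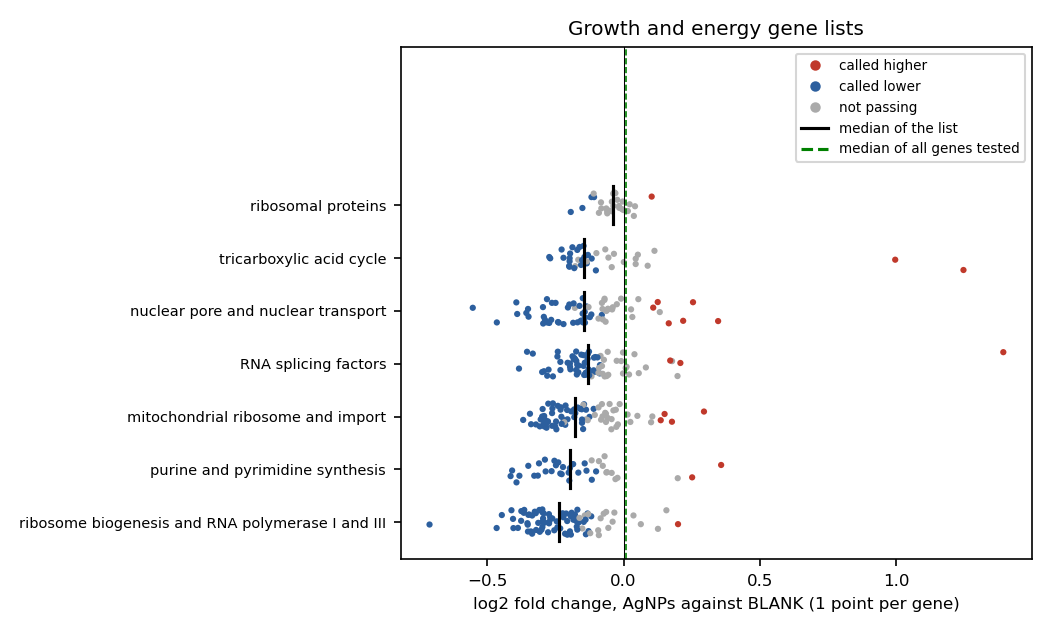
Log2 fold change of each tested gene of 7 lists in AgNPs against BLANK (1 point per gene, red higher, blue lower, grey not passing), with each list's median as a black bar and the median of all genes tested as a dashed line. The ribosome biogenesis bar sits at -0.24 and the ribosomal protein bar at -0.04.

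Synthesis of nucleotides, mitochondrial translation, RNA splicing and nuclear transport were also mostly lower. Among protein-coding genes 21.9% fell, and among genes averaging 6 to 8 on the log2 CPM scale 37.3% did. The part of expression level in the counts of these lists was not tested. Of 39 genes of purine and pyrimidine synthesis 27 fell (69.2%), 2 rose and 10 did not pass (median -0.20). PFAS, of purine synthesis, fell by 0.41 ± 0.04, CAD, which starts pyrimidine synthesis, by 0.31 ± 0.03, and TYMS, thymidylate synthase, by 0.41 ± 0.04. The 2 risers supply deoxynucleotides outside S phase, TK2 (0.36 ± 0.07) and RRM2B (0.25 ± 0.07). Of 79 genes of the mitochondrial ribosome and import machinery 49 fell (62.0%) and 4 rose (median -0.18). MRPS34, a small subunit protein, led the falls at -0.37 ± 0.04. Of 74 splicing factors 48 fell (64.9%) and 3 rose (median -0.13). HNRNPM, a splicing repressor, was at 331 to 359 CPM in BLANK and 270 to 272 CPM in AgNPs. ESRP1, the epithelial splicing regulator, stood against its list, at 2.62 to 2.97 CPM in BLANK and 6.09 to 8.58 CPM in AgNPs (1.39 ± 0.15, edgeR adjusted p = 2.36e-09). Of 64 nuclear pore and transport genes 38 fell (59.4%) and 6 rose. The nuclear lamina gene LMNB1, known to fall in senescent cells, went from 133 to 137 CPM to 90.6 to 93.4 CPM.

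**Figure D4:**
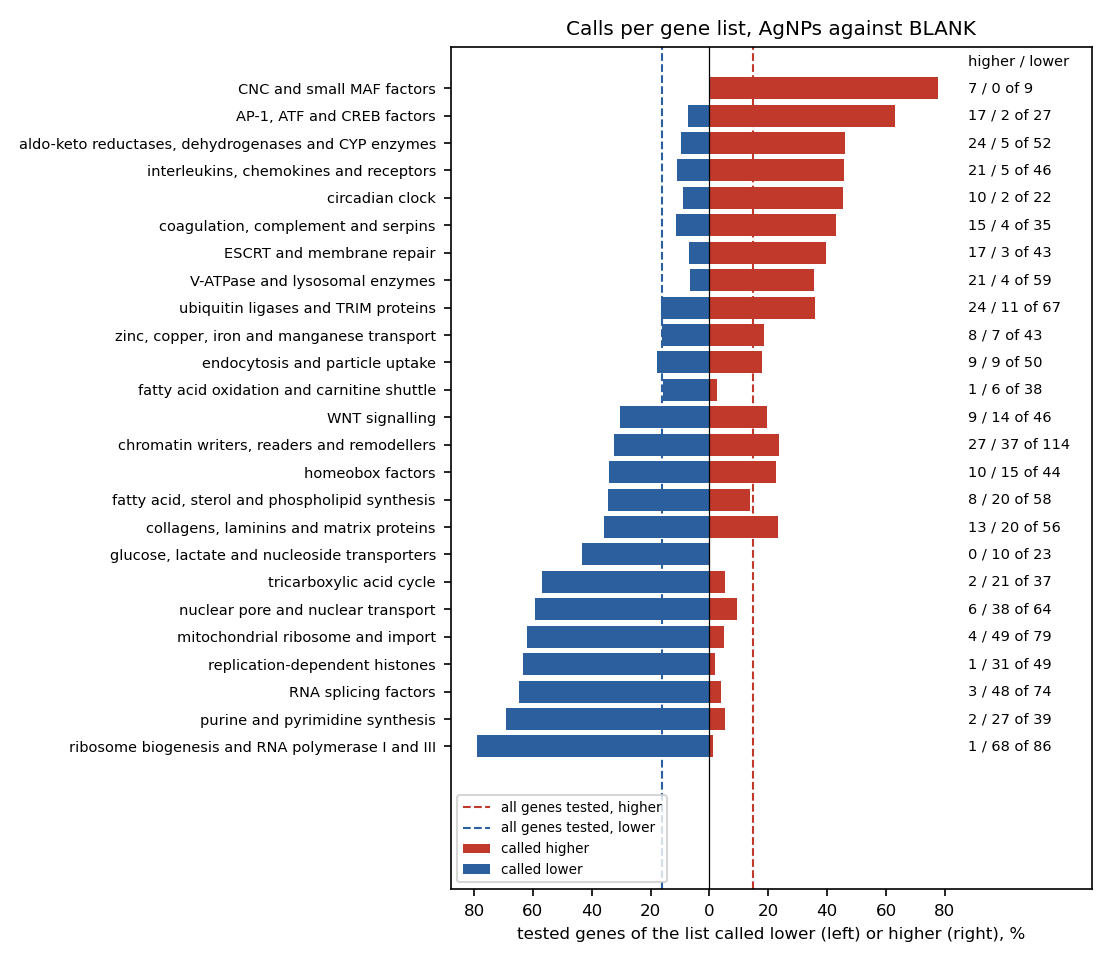
Share of the tested genes of 25 chosen lists called higher (red, right) or lower (blue, left) in AgNPs against BLANK, in %, with the counts at the right edge. Not every list is drawn. Lists left out include mitosis and kinesins (69 of 78 lower) and DNA replication (28 of 50 lower). Dashed lines give the shares among all genes tested, 14.9% higher and 16% lower. The ribosome biogenesis bar extends to 68 of 86 on the left and the CNC and small MAF bar to 7 of 9 on the right.

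Histone genes were mostly lower and other chromatin genes were split. Of 49 tested replication-dependent histone genes 31 fell and 1 rose (median -0.24), and these are uncertain as near-identical copies. H2AC4 fell by 0.55 ± 0.05 and H2BC14 by 0.57 ± 0.06. Of 114 chromatin writers, readers and remodellers 27 rose (23.7%) and 37 fell (32.5%), beside 17.7% and 21.9% of protein-coding genes. UHRF1, which maintains DNA methylation after replication, went from 324 to 337 CPM to 228 to 234 CPM. PHF19, a Polycomb cofactor, fell by 0.63 ± 0.04 and DOT1L, a histone H3 methylase, by 0.44 ± 0.03. KDM5B, a histone demethylase, rose by 0.54 ± 0.04. Of 76 DNA repair genes 22 fell (28.9%), 7 rose (9.21%) and 47 did not pass. PRKDC, the kinase of end joining, was at -0.31 ± 0.02. PEG10, an imprinted gene of retrotransposon origin (chromosome 7, 94656325 to 94669695), was among the 10 largest losses in CPM of all genes, from 979, 934 and 935 in BLANK to 609, 610 and 614 in AgNPs.

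Lipid and energy genes moved in parts. FASN, fatty acid synthase (chromosome 17, 82078338 to 82098236), was at 990, 1037 and 1045 CPM in BLANK and 680, 687 and 689 CPM in AgNPs (-0.58 ± 0.03, edgeR adjusted p = 8.44e-20). SCD, which desaturates its product, fell by 0.65 ± 0.03, and ACACA, the carboxylase before it, by 0.48 ± 0.03. PLIN2, the coat protein of lipid droplets, rose from 96.6 to 97.4 CPM to 182 to 188 CPM. Over the whole list of 58 lipid synthesis genes 20 fell, 8 rose and 30 did not pass. Of 37 genes of the tricarboxylic acid cycle and its regulators 21 fell (56.8%, beside 21.9% of protein-coding genes) and 2 rose (median -0.14). Their falls were small, the largest being DLAT and SDHD at -0.27 each. PCK2, the mitochondrial enzyme that makes phosphoenolpyruvate, was at 17.1, 19.1 and 19.7 CPM in BLANK and 43.6, 45.4 and 43.6 CPM in AgNPs. Of 23 transporters of glucose, lactate and nucleosides 10 fell and 13 did not pass, with the nucleoside transporter SLC29A1 at -0.49 ± 0.06. Of 38 fatty acid oxidation genes 1 rose, 6 fell and 31 did not pass.

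Of 24 tested amino acid transporters 12 rose (50%), 4 fell (16.7%) and 8 did not pass. Among protein-coding genes 17.7% rose and 21.9% fell. SLC7A11, which imports cystine for glutathione, was at 132, 126 and 123 CPM in BLANK and 485, 481 and 484 CPM in AgNPs, and SLC1A4, a serine and alanine carrier, went from 10.7 to 11.1 CPM to 32.8 to 35.1 CPM. CTH, which makes cysteine from cystathionine, rose by 1.70 ± 0.11. Of 40 aminoacyl-tRNA synthetases 10 rose (25%) and 13 fell (32.5%). GARS1, for glycine, was at 0.55 and SARS1, for serine, at 0.52 on the log2 scale, both higher.

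Metal carriers changed about as often as genes at large. Of 43 tested carriers and stores of zinc, copper, iron and manganese 8 rose (18.6%), 7 fell (16.3%) and 28 did not pass. Among all genes tested 14.9% rose and 16% fell, and among protein-coding genes 17.7% and 21.9%. SLC30A1, which exports zinc from the cell (chromosome 1, 211571568 to 211579161), was at 42.0, 41.2 and 44.1 CPM in BLANK and 106, 106 and 112 CPM in AgNPs. SLC39A10, which imports zinc, went from 68.4, 67.8 and 65.3 CPM to 38.8, 37.8 and 37.4 CPM (-0.82 ± 0.05, edgeR adjusted p = 1.01e-16). The zinc exporter and importer thus lay on opposite sides. The copper importer SLC31A1 and the copper exporter ATP7A rose by only 0.15 ± 0.04 and 0.25 ± 0.06. FTH1 and FTL, the subunits of the iron store ferritin, rose by 0.97 ± 0.02 and 1.17 ± 0.04, FTH1 from 2897 to 3010.2 CPM in BLANK to 5564 to 5919.5 CPM in AgNPs. ALAS1, FECH and SLC48A1, which start heme synthesis, insert its iron and carry heme, rose by 0.72 ± 0.04, 0.88 ± 0.04 and 1.11 ± 0.05. GLRX5, which helps make iron-sulfur clusters, fell by 0.35 ± 0.04. Of the 36 heme and iron-sulfur genes 6 rose (16.7%) and 8 fell (22.2%). These shares were nearer to those of protein-coding genes than to those of all genes tested. Among 27 selenium genes 7 rose (25.9%) and 8 fell (29.6%). SELENOH, a nucleolar selenoprotein, was at -0.90 ± 0.11 and SELENOW, a small redox selenoprotein, at -0.87 ± 0.07.

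Among lysosome, membrane repair and ubiquitin genes risers outnumbered fallers, by small amounts. Of 59 V-ATPase and lysosomal genes 21 rose and 4 fell (median 0.10). GLA, alpha-galactosidase, was at 25.5 to 30.7 CPM in BLANK and 50.4 to 55.4 CPM in AgNPs. NPC1, which exports cholesterol from lysosomes, rose by 0.48 ± 0.04 and CTSD, a lysosomal protease, by 0.44 ± 0.04. Of 43 ESCRT and membrane repair genes 17 rose and 3 fell. CHMP4C and CHMP1B, subunits of the ESCRT-III filament, rose by 0.72 ± 0.09 and 0.61 ± 0.06, and ANXA1, which seals wounded membranes, by 0.45 ± 0.03. Of 50 endocytosis genes 9 rose and 9 fell (18% each), beside 17.7% and 21.9% of protein-coding genes. Of 67 ubiquitin ligases and TRIM genes 24 rose and 11 fell. KLHL24, an adaptor that directs keratin turnover, was at 11.1 to 12 CPM in BLANK and 28.4 to 31.4 CPM in AgNPs, and TRIM59 fell by 0.66 ± 0.06.

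Among secreted signals risers outnumbered fallers. Of 46 tested interleukins, chemokines, receptors and their regulators 21 rose (45.7%), 5 fell (10.9%) and 20 did not pass (median 0.34). Among protein-coding genes 17.7% rose and 21.9% fell. CXCL8, a neutrophil chemokine, was at 4.87 to 5.46 CPM in BLANK and 19.2 to 21.1 CPM in AgNPs. IL11, a cytokine of the gp130 family, went from 3.01 to 3.11 CPM to 9.91 to 11 CPM (1.75 ± 0.12, edgeR adjusted p = 1.97e-14). OSMR and IL13RA2, cytokine receptors, rose by 0.51 and 0.41 on the log2 scale. TNFSF9, the ligand of a T cell receptor of the TNF family, was at 8.92, 9.93 and 10.5 CPM in BLANK and 35.8, 33.5 and 33.7 CPM in AgNPs. TNFAIP6, which binds hyaluronan at inflamed sites, rose by 1.76 ± 0.12, and ZFP36, which destabilises cytokine mRNAs, also by 1.76 ± 0.11. ULBP1, a ligand that marks stressed cells for natural killer cells, was at 0.225 to 0.532 CPM in BLANK and 1.65 to 3.04 CPM in AgNPs.

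Growth factor, matrix and adhesion genes were split, as protein-coding genes were at large (17.7% higher and 21.9% lower). Among 19 genes of the EGF receptor system 6 rose (31.6%) and 3 fell (15.8%). HBEGF, a ligand shed from the membrane, went from 7.81 to 9.23 CPM to 16.5 to 19 CPM, and ADAM17, the protease that sheds it, rose by 0.63 ± 0.05. ERRFI1, a feedback inhibitor of the receptor, rose by 0.51 ± 0.03. VEGFA, which directs vessel growth, was at 45.9, 49.3 and 48.3 CPM in BLANK and 102, 100.4 and 99.7 CPM in AgNPs. IRS2, an insulin receptor substrate, rose by 1.44 ± 0.13, while IGFBP4, which binds insulin-like growth factors, fell by 0.44 ± 0.03. In WNT signalling 9 of 46 rose (19.6%) and 14 fell (30.4%). The ligand WNT9A was at 1.35 ± 0.14 and the antagonist DKK1 at -0.50 ± 0.04. NOG, an antagonist of BMPs, fell by 0.64 ± 0.07. Of 56 collagens, laminins and matrix proteins 13 rose (23.2%) and 20 fell (35.7%). THBS1, thrombospondin, was at 78.7, 78.8 and 79.8 CPM in BLANK and 144, 144 and 143 CPM in AgNPs, and TNC, tenascin, fell by 0.45 ± 0.03. Of 35 coagulation, complement and serpin genes 15 rose (42.9%) and 4 fell (11.4%). CLU, the extracellular chaperone clusterin, rose by 0.90 ± 0.05. ITGA5, the fibronectin receptor subunit, rose by 0.61 ± 0.04. ARHGEF2, an exchange factor for RhoA bound to microtubules, was at 43.2, 44.0 and 44.8 CPM in BLANK and 113, 109 and 114 CPM in AgNPs.

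Clock genes moved as well. Of 22 circadian genes 10 rose (45.5%) and 2 fell (9.09%), beside 17.7% and 21.9% of protein-coding genes. BMAL1, an activator of the clock, rose by 0.72 ± 0.09, PER1, a repressor, by 0.56 ± 0.05 and NR1D2, a nuclear receptor that represses BMAL1, by 0.54 ± 0.04. The time of harvest is not given in the labels, and its part in these values was not tested. Of 40 tested lncRNAs with curated names 12 rose (30%) and 13 fell (32.5%), beside 10.6% and 5.41% of all lncRNA genes tested. LUCAT1, an RNA induced by stress, was at 2.88 to 3.15 CPM in BLANK and 21.6 to 24.0 CPM in AgNPs, and is uncertain because 0.101% of its counts lay on RefSeq transcripts.

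AgNPs were also given to cells that received DOC. COM against DOC uses 6 libraries that AgNPs against BLANK does not. Depth differed in the same direction, at 10996446 to 11069928 summed counts of linear transcripts in COM and 18603100 to 19421873 in DOC. With every library thinned to the smallest, 3363 genes were higher and 3360 lower in COM against DOC. The part of depth in the recurrence was not tested. In COM against DOC without thinning 7317 of 19986 genes changed (36.6%), 3615 higher and 3702 lower. Of the 2983 genes that rose after AgNPs alone 2326 also rose there (78.0%) and 3 fell, and of the 3197 that fell 2613 also fell (81.7%) and 3 rose. Seen from the other side, 64.3% of genes higher in COM against DOC were higher after AgNPs alone, and 70.6% of those lower were lower. Recurrence was as high among the 421 genes at least 2-fold higher (340, or 80.8%) but not among the 57 at least 2-fold lower, of which 13 (22.8%) fell again. Across 15184 genes averaging at least 1 on the log2 CPM scale the log2 changes of the 2 comparisons had a Pearson correlation of 0.831 and a Spearman correlation of 0.781, as a description across genes, which are not independent replicates. Ribosome biogenesis recurred with 72 lower and 3 higher of 86, and the CNC and small MAF factors with 7 higher of 9.

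**Figure D5:**
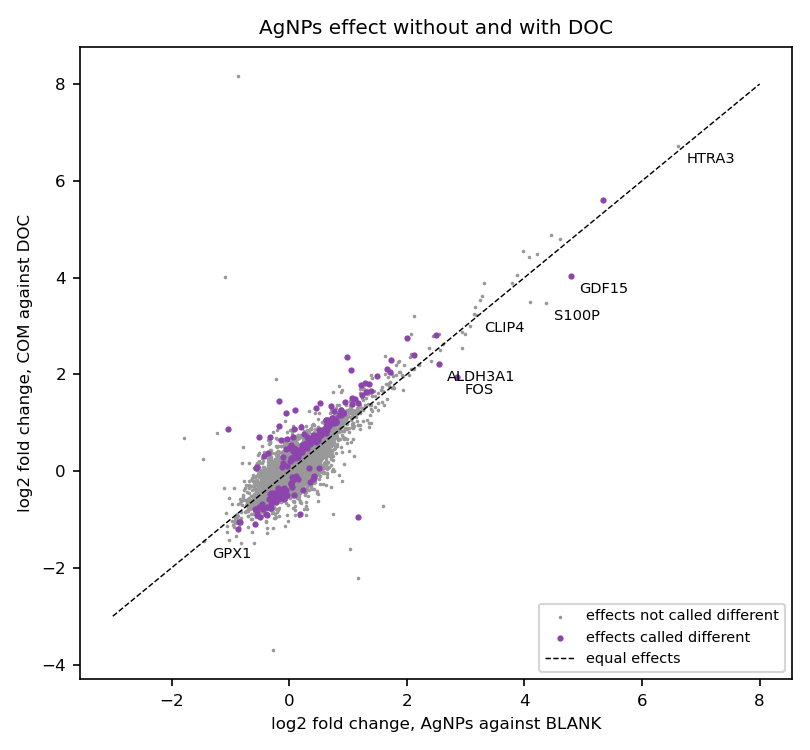
Log2 fold change of AgNPs against BLANK (horizontal) and of COM against DOC (vertical) for 15184 genes averaging at least 1 on the log2 CPM scale. Purple points are genes whose effects were called different, and the dashed line marks equal effects. Most points lie along that line, with GDF15 and FOS below it.

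The test of the difference between both effects called 221 genes (1.11%), 146 higher and 75 lower with DOC. Of the 2983 genes that rose after AgNPs alone, 112 were called higher and 12 lower in this test, and of the 3197 that fell 8 were higher and 46 lower. The interaction count fell to 144, 115 and 131 without AgNPs replicates 1, 2 and 3 and to 119 and 136 without COM replicates 2 and 3. Replication-dependent histones held 15 of the 221. Their median was -0.24 after AgNPs alone and -0.50 in COM against DOC, where 42 of 49 fell.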

How the data were processed

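RNA of 12 PC3 libraries was measured, 3 in each of 4 groups, from total RNA extracted with TRIzol and a BGI mRNA library kit, per the labels' protocols. The submitters' processing notes name HISAT2, Bowtie2 2.2.5, RSEM and GRCh38 without saying which step each served. The authors deposited 1 table with an expected count per transcript and library, and beside it a value that behaves as FPKM for linear transcripts. That unit was inferred from the values, and these deposited FPKM values entered only 1 alternative. The table holds 221796 transcripts, of which the 177700 linear ones were used. Circular RNAs were not analysed here, and the authors' 10 columns of group means were not used.

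Expected counts were summed by gene to 43613 genes, rounded and filtered with filterByExpr to 19986 genes. The test was the robust quasi-likelihood test of edgeR 4.0.16 (R 4.3.3) in 1 model of all 12 libraries with TMM factors (Benjamini-Hochberg adjustment over all genes tested). A gene counts as rising or falling at an adjusted p under 0.05. The standard error of a log2 fold change is its size divided by the square root of the F statistic. CPM uses TMM-scaled library sizes, and levels of different genes were not compared per length. Gene names and promoters come from RefSeq. The fit was checked on simulated counts.

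The comparison and the gene lists were chosen with earlier results of these data known. Named genes are up to 20 each way by fold averaging 1 or more in log2 CPM, with at least 50% of counts on RefSeq transcripts, no overlap of groups and no place in a stress list; up to 10 switched-on genes; up to 12 transcription factors each way by fold; up to 4 per list by adjusted p (2 per stress list); the 10 largest gains and losses in CPM; the 10 largest interaction genes; and fixed genes of growth, metals and the KLF family. Not all of these are described. Markers, BACH1, GLRX5, POLR3C, TK2, RRM2B, MLX, MXD3 and the named factors that did not pass were chosen after their values were seen. Alternatives were DESeq2 1.42.0, limma 3.58.1 on log2(FPKM + 1), RLE factors, other filters, RefSeq transcripts only, thinned counts, a replicate block, only the 6 libraries compared, and leaving out each library. Results for some genes are not reported here.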

Additional observations from a re-analysis of the deposited data

Results flagged for a closer look

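The results below met the test of a difference between the effect of AgNPs with DOC (COM against DOC) and without it (AgNPs against BLANK), at an edgeR adjusted p under 0.05. Each value is the effect with DOC minus the effect without it, on the log2 scale. Among genes that rose after AgNPs alone, the log2 rise was smaller with DOC for FOS, the AP-1 subunit (-0.91), for GDF15, a secreted stress cytokine (-0.77), and for ALDH3A1 (-0.33). Mean FOS was 1.03 CPM in BLANK, 3.68 in DOC, 7.41 in AgNPs and 14.2 in COM. In the same order, mean GDF15 was 9.45, 24.8, 262 and 405 CPM and mean ALDH3A1 125, 150, 729 and 695 CPM. FOS and GDF15 were thus higher in DOC than in BLANK, and higher in COM than in AgNPs. The log2 rise was larger with DOC for PANX2 (0.55), CEBPB (0.44), GLA (0.37), ASNS (0.33), VEGFA (0.32), ATF4 (0.29), PLIN2 (0.28), TFE3 (0.28), KLF4 (0.27), KLF5 (0.24), FTL (0.23), ERRFI1 (0.23), GARS1 (0.23), SARS1 (0.21), AHR (0.20), E2F7 (0.20) and NFE2L1 (0.20). Among genes that fell after AgNPs alone, the fall was larger with DOC for H2BC14 (-0.51), H2AC4 (-0.36), CCNF (-0.33), LMNB1 (-0.27), HOXB13 (-0.25) and PRKDC (-0.15). Of all genes tested 1.11% were called.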

How the results depend on the processing

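Genes called higher numbered 2079 to 3197 and genes called lower 2209 to 3504 over 21 alternatives, and no result changed direction. Leaving out 1 library gave 2583 to 3197 higher, 2523 to 3439 lower, 389 to 453 at least 2-fold higher and 47 to 68 at least 2-fold lower. In COM against DOC it gave 3117 to 3669 higher and 3187 to 3701 lower. The test of the difference ranged from 115 to 269 genes. It called 54 with limma on log2(FPKM + 1). With limma 98 genes were at least 2-fold higher and 2 at least 2-fold lower, on a scale that understates the change of low genes. At least 2-fold lower were 21 genes with DESeq2, 32 with a filter of 1 CPM in 3 libraries, 37 on RefSeq transcripts only and 97 with no filter, and the cause was not tested. Same-numbered libraries did not deviate together (r = 0.14, 0.02 and -0.0085 for BLANK and AgNPs), so the numbers were not taken as pairs. With a replicate block 2922 genes were higher and 3117 lower, and 176 differed in the test of the difference. Of genes named, SLC31A1 lost its call after thinning (adjusted p = 0.0513) and ATP7A, PAPPA2 and KLF6 with limma on log2(FPKM + 1) (0.0857, 0.0794 and 0.165). Of the markers, CTNNA1 lost its call with limma (0.494). CD44 lost it with DESeq2, with limma, with no filter, and without AgNPs replicate 2 or BLANK replicates 2 or 3 (up to 0.192). Of the 57 at least 2-fold lower genes 32 averaged below 0 and 20 between 0 and 2 on the log2 CPM scale, and 42 such genes were found with every library thinned to the smallest.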
